A study of Mus musculus with 2 samples.

Results

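Yolk sac PK44 cells are sorted with 7 antibodies, and the transcripts of the 7 targeted genes were followed here in every cell. The cells had to carry the proteins of Pecam1 (CD31), Procr (CD201), Kit and Cd44, and to lack those of Itga2b (CD41), Spn (CD43) and Ptprc (CD45). The genes were chosen by this gate and not by their values, and they make up 7 of the 23154 genes in the count tables. The data are single-cell transcriptomes of 87 cells from the yolk sac of C57BL/6 background mouse embryos at E10.0, in 2 libraries of 43 cells (replicate 1) and 44 cells (replicate 2). The labels name no treatment and no altered allele. All cells passed the same gate, so there is no group outside the gate to compare with. No source used here says how many embryos were pooled for a library, so the spread between the libraries may be technical.

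PK44 cells are taken as hemogenic endothelial cells, the endothelial cells of the embryo that give rise to blood. In the endothelial-to-hematopoietic transition such cells loosen their junctions, lose endothelial genes and gain blood genes. CD31 is an adhesion molecule of endothelial junctions. CD201 is the endothelial receptor of protein C and is also carried by hematopoietic stem cells. Kit is the receptor of stem cell factor, and CD44 binds hyaluronan in the matrix. CD41 is the integrin alpha chain of platelets and one of the first proteins of embryonic blood commitment, CD43 is a sialomucin of leukocytes, and CD45 is a tyrosine phosphatase of nucleated blood cells.

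Replicate 1 held 8932527 counts, with a median of 141577 per cell, and replicate 2 held 12706360, with a median of 238898. Single cells ranged from 13218 to 956593 counts, and no cell name was shared between the libraries. All 8 endothelial marker genes had counts in both libraries, at a summed 2360 and 3611 CPM (counts per 1000000). Of the 8 lymphoid and 8 neural marker genes, 13 had no count in any cell, which allows for each a share of up to 3.45% of cells with a count. The exceptions were Stmn2, a neural gene, in 56 cells (10 or more counts in 18), Cd79b in 15 cells and Cd79a in 1. Mrc1, a mannose receptor of macrophages that some endothelial cells also carry, was counted in 71 cells, 37 of them at 10 or more. However, 3 cells (2 of replicate 1 and 1 of replicate 2) held 100 or more counts of each of the mesenchymal genes Col1a1, Col1a2, Col3a1 and Lum. They are kept below unless a result is also given without them.

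The genes lie apart in the genome, except for pairs that share a chromosome (mm10, which is GRCm38). Pecam1 spans chr11:106654217-106750628 and Itga2b chr11:102453297-102470122, both on the minus strand. Procr spans chr2:155751117-155755471 on the plus strand and Cd44 chr2:102811141-102901665 on the minus strand. Kit lies at chr5:75574916-75656722 on the plus strand, Spn at chr7:127132232-127137823 and Ptprc at chr1:138062861-138175708, both on the minus strand. The 250 bases before the RefSeq start (GRCm38.p6) were read for 6 of the 7 genes, all but Pecam1. Both strands were searched for the short motifs of 3 factor families that work in hemogenic endothelium. The motif of ETS factors, GGAAGT, was in the windows of the 3 genes sorted against and in none of the others, and in 19.99% of 27025 promoters of the same length. The motif of the blood zinc finger factors Gata1 and Gata2, AGATAA, was found in the window of Cd44 alone, and in 10.3% of the same promoters. The motif of RUNX factors, TGTGGT, was in none of the 6 windows, and in 14.2% of promoters. The 30 bases around each match to the ETS motif are shown, because this match is what the genes sorted against had in common. The capitals mark the match, which is written as its reverse complement where it lies on the other strand. The spans above and the RefSeq starts come from different annotations. The sites of Itga2b and Ptprc, though before the RefSeq start, lie inside the spans given for these genes. A match is a description of letters and not a site of binding.
Itga2b, chr11:102469892-102469921, minus strand: ggggaagcagtgACTTCCagccatcagcat
Spn, chr7:127137829-127137858, minus strand: gagccaagacccACTTCCtttccccctggg
Ptprc, chr1:138175400-138175429, minus strand: tacttgaattaaGGAAGTaagaagccattg
Ptprc, chr1:138175346-138175375, minus strand: tttttttttttaACTTCCtgcaaagaggac

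The genes of the proteins sorted for were all more abundant than those sorted against. The protocol reads 3′ ends, so counts were not divided by gene length. Levels are the CPM of all counts summed over the cells of a library. Pecam1 stood at 220.2 CPM (replicate 1) and 466 CPM (replicate 2; mean 343 ± 174, SD, n = 2 libraries), and ranked 465 of the 13206 genes with a count. Single cells ran from 0 over a median of 118 to 1216 CPM in replicate 1, and from 7.15 over 535 to 1253 CPM in replicate 2. Pecam1 was thus the sort gene with the fewest empty cells, and the median cell of replicate 2 held far more of it than that of replicate 1.

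Cd44 was at 291 and 212 CPM (252 ± 55.6, SD, n = 2), rank 663. Its cells ran from 0 over 289 to 1943 CPM in replicate 1 and from 0 over 186 to 1032 CPM in replicate 2. The cells of both libraries overlapped over nearly the whole range. Procr was at 235 and 165 CPM (200.1 ± 49.7, SD, n = 2), rank 919. Its medians were close, 133 CPM in replicate 1 and 130.1 CPM in replicate 2, but single cells reached 2378 CPM in replicate 1 and 999 CPM in replicate 2. Neighbours in the order Pecam1, Cd44, Procr and Kit differed by less than the spread of the libraries, and so did Spn and Ptprc.

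Kit was the least abundant gene of those sorted for. It was at 209 and 86.3 CPM (148 ± 86.7, SD, n = 2), rank 1350. In replicate 1 its cells ran from 0 over 43.2 to 677 CPM, and in replicate 2 from 0 over 9.16 to 492 CPM. The coefficient of variation over cells was 1.18 and 1.85, against 1.196 and 0.663 for Pecam1. In both libraries 5 cells held over 50% of the Kit counts, 54.0% in replicate 1 and 69.7% in replicate 2.

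Of the genes sorted against, Itga2b was the highest, at 65.0 and 37.8 CPM (51.4 ± 19.3, SD, n = 2), rank 3956. Its cells ran from 0 over 1.97 to 874 CPM in replicate 1 and from 0 over 7.08 to 201 CPM in replicate 2. A few cells carried most of it, since 5 cells held 89.7% of its counts in replicate 1 and 56.0% in replicate 2. Spn was at 17.02 and 3.94 CPM (10.5 ± 9.25, SD, n = 2), rank 8605, and Ptprc at 1.57 and 3.38 CPM (2.48 ± 1.28, SD, n = 2), rank 10915. The median cell held 0 counts of both.

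**Figure D1:**
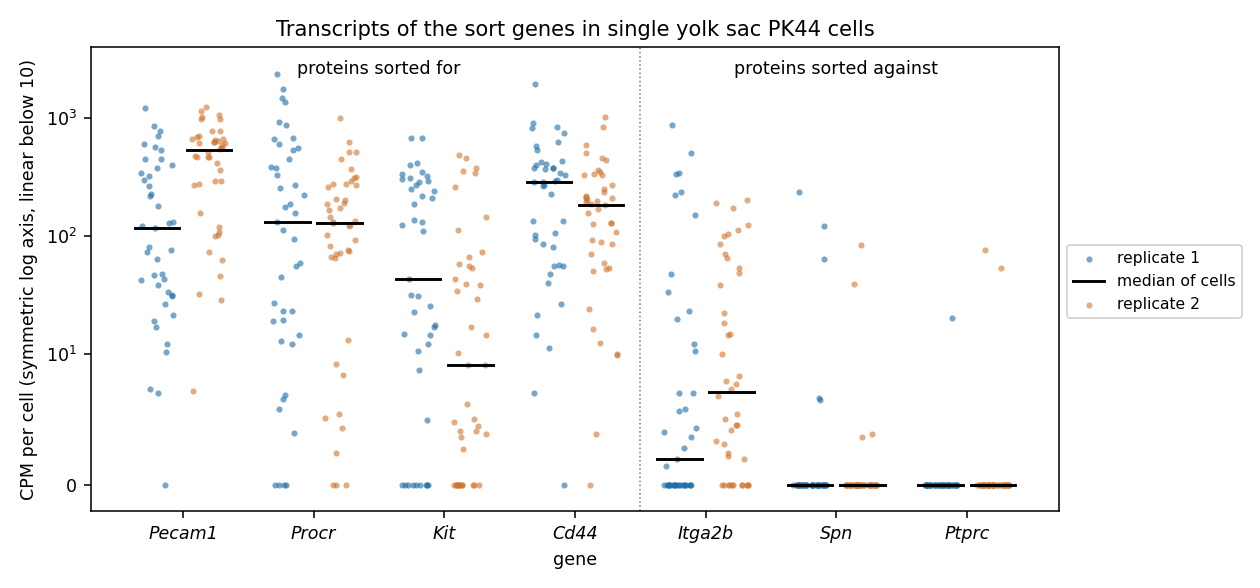
Each point is 1 cell, with its CPM on a symmetric log axis that is linear below 10, for the 7 sort genes in replicate 1 (blue, 43 cells) and replicate 2 (orange, 44 cells), and black bars mark the median. The 4 genes sorted for reach over 400 CPM in single cells of both libraries, while Spn and Ptprc lie at 0 in all but 9 and 3 cells.

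Between the libraries, 3 of the 6 sort genes with 10 CPM or more in either library differed by over 2-fold. The background for this count was 31.6% of 9493 genes at that level. Pecam1 was 2.12-fold higher in replicate 2, and Kit was 2.42-fold and Spn 4.32-fold higher in replicate 1. With 1 library on each side these differences have no test. For Itga2b the direction depended on the scale, because the sum was higher in replicate 1 but the median cell was higher in replicate 2. In counts thinned to 20000 per cell, which gives each cell the same total, the Itga2b sum of replicate 1 stood at 75 CPM and that of replicate 2 at 35.2 CPM.

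A count of 1 to 5 was not read as expression, since Lum and Col1a1 were found at that level in cells outside the collagen-high ones. Outside the 3 collagen-high cells, Lum was counted in 52 of 84 cells (61.9%, exact 95% interval 50.7 to 72.3%), never more than 5, while each of the 3 cells held 215 to 315. Col1a1 had 1 to 9 counts in 50 of these 84 cells, and 10 or more, up to 31, in 3 of them. Col1a2, with 1172 to 1692 counts in the 3 cells, had 10 or more in 5 of the 84, so that a mark of 10 counts is not free of such counts for the most abundant genes. Itga2b was detected in 56 of 87 cells (64.4%, exact 95% interval 53.4 to 74.4%), a share whose interval overlaps that of Lum in cells that should lack it, at 1061 Itga2b and 844 Lum counts in all. Among the 68 cells with under 10 counts of Itga2b, 37 had 1 or more (54.4%, exact 95% interval 41.9 to 66.5%). Whether such low counts are low expression or counts from other cells was not tested, and they are not read as expression. Over all genes, 41.1% of the values above 0 were 1 to 5, 5.78% were 6 to 9 and 53.1% were 10 or more. In 12 of 87 cells more genes had 10 to 13 counts than 6 to 9. The methods state that duplicates were removed by molecular identifier, but whether a count equals 1 molecule was not tested, and counts are not read as molecules here.

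With 10 or more counts taken as the mark of a cell that holds the transcript, Pecam1 was present in 65 of 87 cells (24 of replicate 1, 41 of replicate 2). Cd44 was present in 64 cells (30 and 34) and Procr in 57 (25 and 32). Kit passed this mark in only 36 cells (20 and 16), or 41.4% (exact 95% interval 30.9 to 52.4%), although every cell was sorted for the protein. By their Kit counts, 21 cells were at 0, 29 at 1 to 5, 1 at 6 to 9 and 36 at 10 or more. Over all genes only 5.78% of the values above 0 were 6 to 9, so the sparse range is no trait of Kit.

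Itga2b passed 10 counts in 19 cells (7 and 12), or 21.8% (exact 95% interval 13.7 to 32.0%), although every cell was sorted against CD41. Its counts were 0 in 31 cells, 1 to 5 in 37, 6 to 9 in none and 10 to 201 in 19. These 19 cells held 993 of the 1061 Itga2b counts. With 5.78% of the values above 0 at 6 to 9 over all genes, the gap is no trait of Itga2b. Spn passed 10 counts in 5 cells (3 and 2) and Ptprc in 3 cells (1 and 2). After thinning, 1 or more counts were left in 23 of 86 cells for Itga2b and in 40 of 86 for Kit, since 1 cell of replicate 1 was too shallow to thin. Protein and transcript were measured at different steps, and the index values of the sort were not used here.

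**Figure D2:**
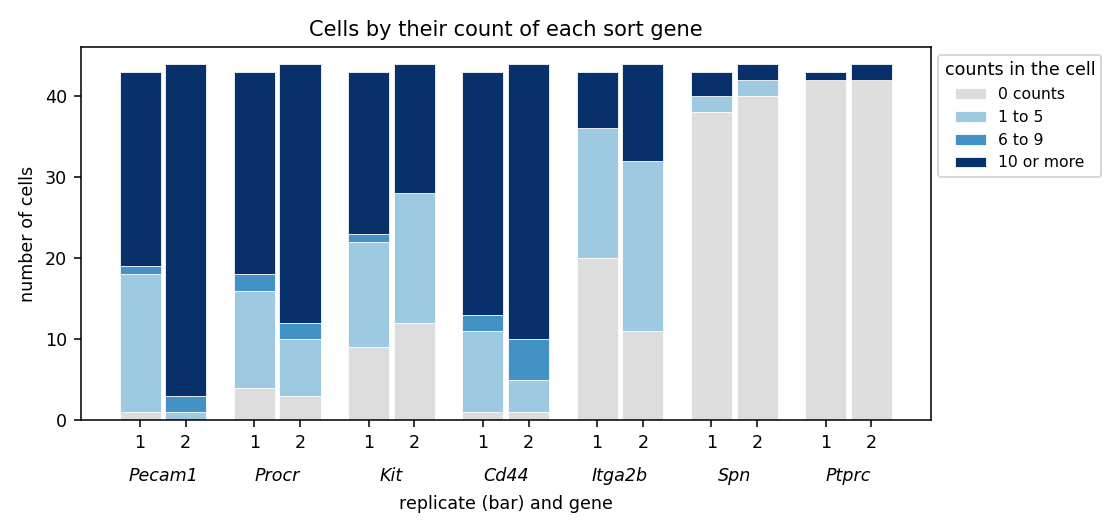
Stacked bars give the number of cells with 0, 1 to 5, 6 to 9 and 10 or more counts of each sort gene, with 1 bar per library (replicate 1 left, replicate 2 right) and an axis from 0. Pecam1, Procr and Cd44 reach 10 or more counts in most cells, Kit in 20 and 16 cells, and Itga2b in 7 and 12 cells.

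Few cells carried the whole gate at the transcript level, but this was not set against the number that the shares of the single genes would give. At 1 or more counts, all 4 genes sorted for were seen together in 60 of 87 cells (31 and 29), but only 14 of these cells had no count of the 3 genes sorted against. At 10 or more counts, all 4 were seen in 14 cells (7 in each library), 62 cells had none of the genes sorted against at that level, and 8 cells (5 and 3; 9.20%, exact 95% interval 4.05 to 17.3%) met both. After thinning to 20000 counts per cell, 20 of 86 cells had all 4 and 13 (7 and 6) had the whole pattern. Of the genes sorted for, Kit was most often missing. Of the 64 cells with 10 or more Cd44 counts, 29 also had 10 or more of Kit (45.3%), against 41.4% of all cells. Of the 57 cells with Procr, 44 also had Cd44 (77.2%), against 73.6% of all cells. At this level Pecam1 and Kit were seen together in 25 cells. These were 38.5% of the Pecam1 cells (Kit was in 41.4% of all cells) and 69.4% of the Kit cells (Pecam1 was in 74.7% of all cells). Each share was near that over all cells and is no result about the pair.

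Spearman rho of CPM was computed for the 21 pairs within each library, over 43 and 44 cells that share a library, their depth and the dominance of a few genes, and is given as a description. None of the pairs reached 0.3 or passed -0.3 in both libraries. Among 18300 pairs of a sort gene with any gene found in 50% or more of the cells, 0.721% reached 0.3 and 0.268% passed -0.3 in both. At that background a count of 0 among 21 pairs is no result about the sort genes. By the mean of both libraries the lowest pair was Pecam1 and Kit, with rho of -0.24 in replicate 1 and -0.50 in replicate 2. In replicate 1 alone, Cd44 and Itga2b (-0.37) and Pecam1 and Procr (-0.30) were lower. In cells with 10 or more Kit counts the median Pecam1 level was 78.4 CPM against 221 CPM in the other cells of replicate 1, and 217 against 622 CPM in replicate 2. The Kit-rich cells of both libraries thus held less Pecam1 at the median, while the ranges overlapped.

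Other pairs went opposite ways in the libraries. Pecam1 and Procr had rho of -0.30 and 0.39, and Cd44 and Itga2b -0.37 and 0.05. Only 8 of the 21 pairs had the same sign in both. Kit and Spn had rho of 0.23 and 0.26, with Spn at 10 or more counts in 5 cells only. Depth moved with Kit itself, with a rho between Kit CPM and the cell's total of 0.46 and 0.25, and its part in the pairs was not tested beyond thinning, under which no pair passed 0.3 in both libraries either.

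**Figure D3:**
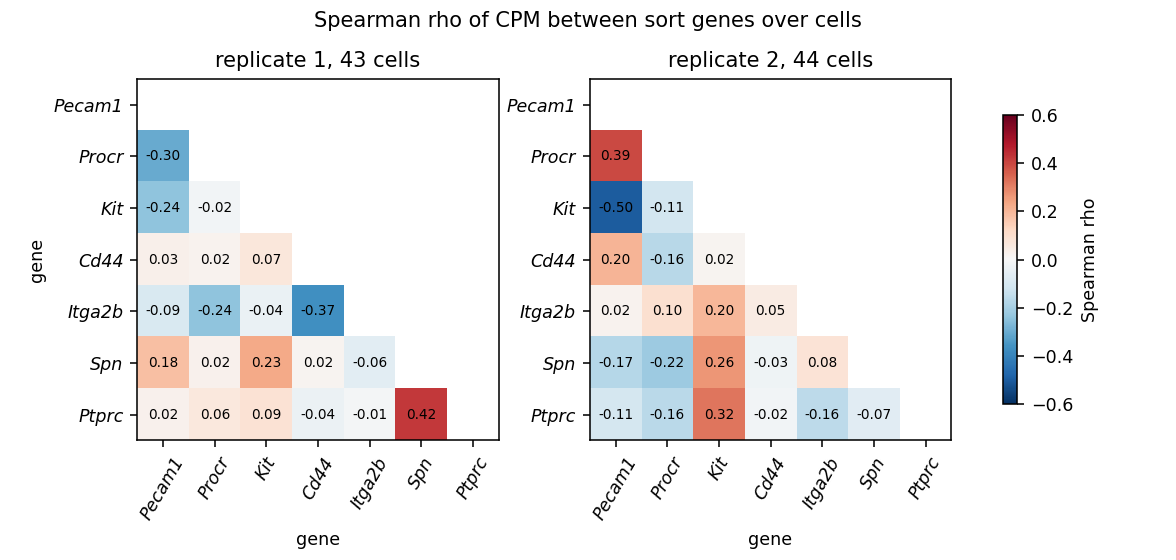
Each tile gives Spearman rho of CPM between a pair of sort genes over the 43 cells of replicate 1 (left) or the 44 cells of replicate 2 (right), on a colour scale from -0.6 to 0.6. Pecam1 and Kit are blue in both panels, at -0.24 and -0.50, while Pecam1 and Procr change from -0.30 to 0.39.

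**Figure D4:**
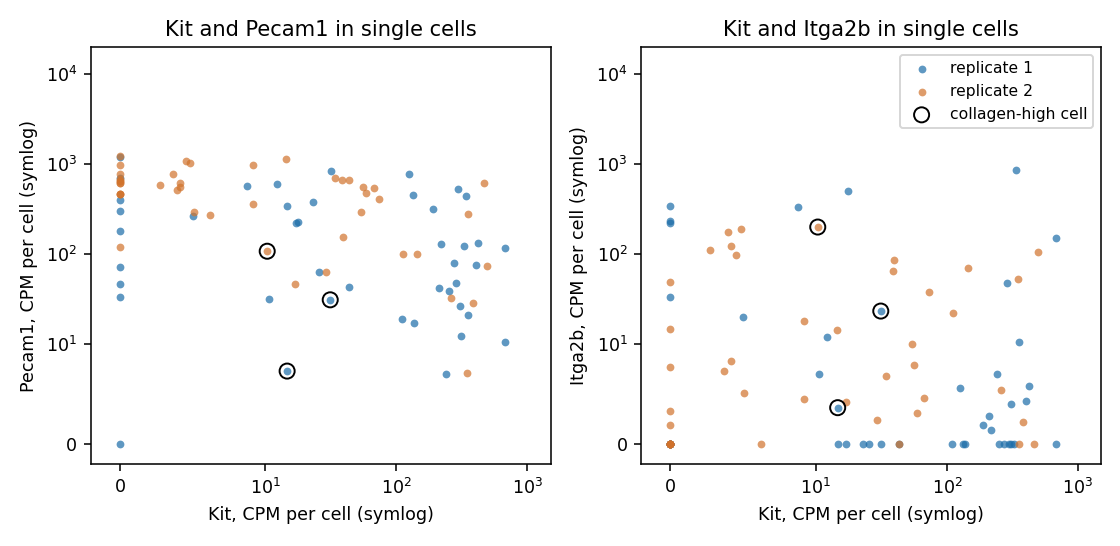
Each point is 1 cell, with Kit CPM on the x axis and Pecam1 (left) or Itga2b (right) CPM on the y axis, on symmetric log axes, blue for replicate 1 and orange for replicate 2, and circles mark the 3 collagen-high cells. The cells of highest Kit spread over low and high Pecam1, and cells rich in Itga2b are found with and without Kit.

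Kit was the sort gene with the most genes of a like pattern. Among 3660 genes found in 50% or more of the cells of each library, 102 had rho of 0.3 or more with Kit in both libraries and 24 had -0.3 or less. For Pecam1 these numbers were 18 and 13, for Procr 5 and 9, for Cd44 2 and 3, and for Itga2b 5 and 0. The median rho over the 3660 genes was itself above 0 for Kit, at 0.12 and 0.06, the cell's depth moved with Kit as given above (0.46 and 0.25), and the part of depth in the count was not tested. The genes most like Kit, by the lower of the 2 values of rho, were Npm1 (0.53 and 0.51), a nucleolar chaperone, Runx1 (0.55 and 0.50), the transcription factor required for the endothelial-to-hematopoietic transition, and Vars (0.50 and 0.52), a tRNA synthetase. In thinned cells Runx1 was at 0.37 and 0.47. The genes most opposed to Kit were Col4a2 (-0.57 and -0.49) and Col4a1 (-0.59 and -0.47), which make the collagen of endothelial basement membranes, and in thinned cells Col4a1 was at -0.59 and -0.42.

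Pecam1 was most like F2r (0.48 and 0.53), the thrombin receptor, followed by Ecm1 (0.46 and 0.47), a matrix protein, and Map4k4 (0.43 and 0.48), a kinase. It was most opposed to Mrto4 (-0.39 and -0.36), a ribosome assembly factor, and to Npm1 (-0.35 and -0.46), which was the gene at the head of the Kit list. Procr was most like Itga6 (0.40 and 0.37), a laminin receptor chain, Pik3r1 (0.32 and 0.39), a regulatory subunit of PI3 kinase, and Lpp (0.31 and 0.35). The lowest for Procr were Sub1 (-0.44 and -0.39) and Pgam1 (-0.43 and -0.36). Cd44 was most like Fam92a (0.40 and 0.33), Cyp26b1 (0.32 and 0.33), which degrades retinoic acid, and Clu (0.35 and 0.29), and least like Ostf1 (-0.37 and -0.39) and Mkln1 (-0.36 and -0.62). Itga2b was most like Aff4 (0.42 and 0.36), Tgs1 (0.34 and 0.34) and Lrrfip1 (0.32 and 0.32). It was least like Tra2a (-0.28 and -0.37) and Pdlim7 (-0.32 and -0.25). Several of these values dropped in thinned cells. Tgs1 with Itga2b was then at 0.07 and 0.21, Clu with Cd44 at 0.23 and 0.07, and Pgam1 with Procr at -0.25 and 0.05. Others held, such as Itga6 with Procr (0.47 and 0.39) and Map4k4 with Pecam1 (0.43 and 0.39).

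Between cells of high and low Kit 142 of 10690 genes were called (1.33%), with Spi1 and Ikzf1 among those higher and Gja4 and Kdr among those lower in cells of high Kit. Each library was split at its median Kit CPM, the counts of the cells above it (Kit-high) and of the others (Kit-low) were summed, and the 4 sums were compared with edgeR's quasi-likelihood test with the library as a block. Kit itself was at 300.1 CPM in the 21 high and 11.3 CPM in the 22 low cells of replicate 1, and at 149 and 2.39 CPM in the 22 high and 22 low cells of replicate 2, which is how the cells were split. The cut lay at 43.2 CPM in replicate 1 and at only 9.16 CPM in replicate 2. Kit was under 10 counts in 1 of the high cells of replicate 1 and in 6 of replicate 2. Of the collagen-high cells, 2 of replicate 1 were Kit-low and 1 of replicate 2 was Kit-high. Of the genes tested, 34 were higher in Kit-high cells (0.318%) and 108 were lower (1.01%) at an edgeR Benjamini-Hochberg adjusted p under 0.05, and 140 of these 142 went the same way in both libraries. Kit-high cells were deeper in replicate 1, with a median of 260240 against 75108 counts per cell, and near in replicate 2, with 256094 against 219718. The count of calls depended on the block and on thinning. It was 0 without the block (532 genes at an unadjusted p under 0.05, against 861 with it) and 1 of 6873 when each cell was thinned before summing (477 at an unadjusted p under 0.05), where 138 of the 138 called genes that could be tested kept their sign.

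None of the other 6 sort genes was called between Kit-high and Kit-low cells, which at a background of 1.33% is no result about them. Pecam1 was at 180.0 CPM in Kit-high and 324 CPM in Kit-low cells of replicate 1, and at 354 and 598 CPM in replicate 2. This was a log2 difference of -0.80 (SE 0.35, edgeR Benjamini-Hochberg adjusted p = 0.426). It was lower in the Kit-high cells of both libraries, but did not pass the test. Itga2b was at 42.8 and 119 CPM in replicate 1 and at 28.3 and 49.0 CPM in replicate 2 (log2 difference -1.13, SE 0.81, edgeR adjusted p = 0.895). Procr (-0.16) and Cd44 (-0.06) differed by less than their SE of 0.42 and 0.39. All 57 counts of Ptprc lay in Kit-high cells, and Spn was at 23.5 and 3.70 CPM in replicate 1 and at 6.54 and 0.183 CPM in replicate 2 (edgeR adjusted p = 0.921).

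Of the genes with the largest called differences, several that rose in Kit-high cells act in blood cells. Spi1, which encodes the transcription factor PU.1, was at 215 CPM in Kit-high and 12.6 CPM in Kit-low cells of replicate 1, and at 91.5 and 12.4 CPM in replicate 2 (log2 difference 3.48, SE 0.72, edgeR adjusted p = 0.000355). Ikzf1, which encodes the lymphoid factor Ikaros, was at 291 and 19.6 CPM and at 55.5 and 1.65 CPM (log2 difference 4.42, SE 0.70, edgeR adjusted p = 4.59e-07). Dapp1, Samsn1 and Dok2, which encode signalling adaptors of blood cells, were higher by 4.33, 3.20 and 3.17 on the log2 scale. The other genes named by the rule were Cited1 (4.75), a transcriptional coactivator, Abcc1 (2.89), a transporter, Rpp40 (7.08), a subunit of RNase P, Exosc5 (2.71), a subunit of the RNA exosome, and Sac3d1 (5.57). Of these, 3 cells held 73.9% of the Rpp40 counts, while 20 cells had 10 or more counts of Ikzf1 and 18 of Spi1.

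The calls of these genes depended on the fit. The split on thinned counts also changed which cells were Kit-high, with 17 high and 27 low in replicate 2 against 22 and 22. The limit of 50000 counts kept 36 of the 43 cells of replicate 1. The part of depth by itself was therefore not tested. When cells were split on counts thinned to 20000, Spi1 was still called (log2 difference 3.24, edgeR adjusted p = 6.49e-05), as were Dapp1 and Exosc5. Ikzf1 had a difference of 1.48 and lost the call (edgeR adjusted p = 0.191), and so did Samsn1 (1.57), Dok2 (0.99) and Cited1 (0.34). In cells of 50000 counts or more Ikzf1 was called (2.66, edgeR adjusted p = 0.0319), and Samsn1 (1.33), Dok2 (1.52) and Cited1 (0.72) were not. Of the 20 genes named by the rule in both directions, 11 lost the call in the split on thinned counts, 12 in the deeper cells, 20 without the block and 16 of 16 tested in thinned sums.

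The genes lower in Kit-high cells by the largest differences were rarer. They were Epha4 (-5.83), an ephrin receptor, Plxnb1 (-7.24), a semaphorin receptor, Lama3 (-4.90), a laminin chain, Ehd2 (-4.68), a protein of caveolae, Tspan12 (-6.43), a tetraspanin of retinal vessels, Nova2 (-5.27), a splicing factor, Wfdc1 (-4.93), Lhfp (-6.89) and Rab11fip2 (-8.22). Fam81a had no count in Kit-high cells and 234 in Kit-low cells, all of them in at most 3 cells. Plxnb1 and Lhfp each reached 10 counts in 3 cells. In contrast, Epha4 did so in 9 and Ehd2 in 12.

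The lists of endothelial and hematopoietic features are those the study scored on PK44 cells of another site, the aorta-gonad-mesonephros (AGM) region. All lists were chosen with earlier results of these data known and are hence no independent evidence. Of the 14 endothelial features beside Pecam1, 6 were called lower in Kit-high cells and none higher. Over all genes tested 1.01% were called lower and 0.318% higher. All 14 had a negative difference, with a median log2 difference of -1.77 against 0.09 over all genes tested. Gja4, an arterial gap junction gene, was at 43.6 and 539 CPM in replicate 1 and at 251 and 928 CPM in replicate 2 (log2 difference -2.75, SE 0.36, edgeR adjusted p = 8.25e-11). The Notch ligand Dll4 (-2.37), the Notch target Hey1 (-2.53), the arterial ligand Efnb2 (-1.99), the hypoxia factor Epas1 (-2.15) and the co-receptor Nrp1 (-1.96) fell as well. The size differed between the libraries, with Epas1 at -3.43 in replicate 1 and -0.88 in replicate 2, Efnb2 at -2.93 and -1.06, and Kdr, a receptor of VEGF, at -2.67 and -0.79. Of the 8 hematopoietic features, 2 were called higher and none lower, and all 8 had a positive difference, with a median of 1.51. Runx1 was at 377 and 148 CPM in replicate 1 and at 188 and 59.3 CPM in replicate 2 (log2 difference 1.51, SE 0.44, edgeR adjusted p = 0.0483). The call of Runx1 was lost with RLE factors (edgeR adjusted p = 0.0565), in the split on thinned counts (1.19, edgeR adjusted p = 0.113) and in cells of 50000 counts or more (1.14, edgeR adjusted p = 0.264). Adgrg1, an adhesion receptor of early blood cells, was higher by 1.58 and was called in these 3 fits, but like Runx1 it was not called without the block or in thinned sums, while Gfi1 (1.35) and Hlf (3.26) did not pass the test.

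The study tried 6 surface markers beside the gate, as proteins on PK44 cells of the AGM region. It kept CD93 and CD146 and dropped Flk1 (gene Kdr), CD304 (gene Nrp1), CD47 and CD49d. Of the 6 genes, read here as transcripts of yolk sac cells, 3 were called lower in Kit-high cells and none higher. Their median was -1.57. Over all genes tested 1.01% were called lower and 0.318% higher. Cd93 was at 239 and 929.5 CPM in replicate 1 and at 447 and 811 CPM in replicate 2 (log2 difference -1.41, SE 0.31, edgeR adjusted p = 0.000834), and Nrp1 and Kdr (-1.73) were the others. Mcam, the gene of CD146, had a difference of -2.18 and did not pass the test (edgeR adjusted p = 0.0969). Cd47 (0.40) and Itga4 (0.59), the gene of CD49d, did not pass it either.

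Genes of the sort genes' own pathways are given beside the background of 1.33% called in either direction, and lists of this size with 0 calls are near it. Of 19 genes of Kit signalling tested, none was called (median -0.24), and of 7 genes of the protein C pathway of Procr none was (median -0.43). Of 9 Cd44 partners, Mmp14 (-1.78), a membrane protease, and Lyve1 (-1.19), a hyaluronan receptor, were called lower, with a list median of -0.79. However, Lyve1 was lower in replicate 1 and higher in replicate 2. Of 12 partners of Pecam1 at junctions, Cdh5 (-1.15), Kdr and Cldn5 (-1.31) were called lower, and the median was -0.77. Of 7 platelet and megakaryocyte genes, Vwf (-1.53) was called lower. The list median was -1.53, which was -0.23 in thinned sums of the 4 genes left. Of 13 leukocyte genes, Coro1a (2.38) and Ikzf1 were called higher and all 13 had a positive difference. The median was 1.96, which was 0.64 in thinned sums of the 9 genes left. The summed level of the 7 mesenchymal markers went opposite ways, at 61.7 CPM in Kit-high and 2540 CPM in Kit-low cells of replicate 1 and at 563 and 25.4 CPM in replicate 2. Stmn2, the neural marker, was lower in Kit-high cells (19.7 and 243 CPM in replicate 1, 32.2 and 177 CPM in replicate 2; log2 difference -3.04, SE 0.57, edgeR adjusted p = 3.94e-05). So was Mrc1 (-3.21, edgeR adjusted p = 0.000321), with most of the gap in replicate 1 (4.46 and 403 CPM) and little in replicate 2 (149.6 and 172 CPM). The part of other cell types in the calls was not tested for these genes. Without the 3 collagen-high cells, 170 genes were called, 129 of them among the 142.

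**Figure D5:**
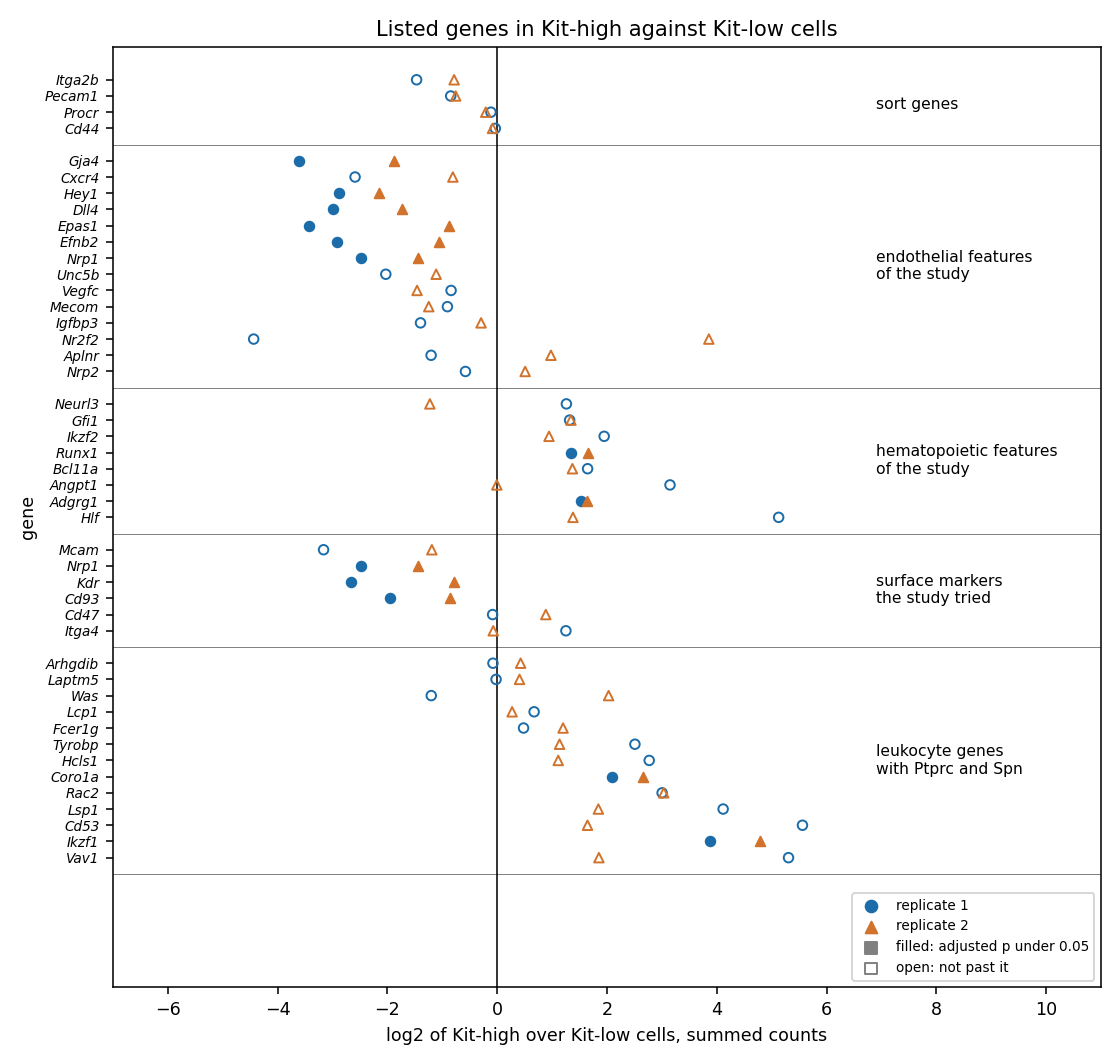
Each mark gives the log2 ratio of Kit-high over Kit-low cells for 1 gene in replicate 1 (circles) or replicate 2 (triangles), filled where the edgeR Benjamini-Hochberg adjusted p was under 0.05, for the sort genes (Spn and Ptprc, with few counts, are left out) and 4 of the lists. The called endothelial features such as Gja4, at -2.75 in the fit, lie left of 0 in both libraries, and the called leukocyte genes, Coro1a and Ikzf1, lie right of it.

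Between cells of high and low Itga2b 7 genes were called. Split at the median of Itga2b, the high and low cells held 115 against 0.515 CPM in replicate 1 and 77.0 against 2.39 CPM in replicate 2. In 14 of the high cells of replicate 1 and 10 of replicate 2 Itga2b was under 10 counts. Of 10678 genes, 6 were higher (0.0562%) and 1 was lower (0.00937%) by edgeR with Benjamini-Hochberg adjustment. Those higher were Col1a1 (5.82), Col1a2 (4.80) and Col3a1 (4.84), the collagens of mesenchymal cells, with Nnat (2.67), the chaperone gene Dnajb1 (1.25) and 2210016L21Rik (2.44), and 8430408G22Rik was lower (-1.93). All 3 collagen-high cells fell above the cut. The 2 of replicate 1 did so with 3 and 1 Itga2b counts, a level not read as expression here. That of replicate 2 had 39 counts. Without the 3 collagen-high cells edgeR called 0 genes (330 at an unadjusted p under 0.05).

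Split at 10 counts of Itga2b, edgeR also called 0 genes (157 at an unadjusted p under 0.05). In the split at the median none of the other 6 sort genes was called, at a background of 7 genes of 10678. Kit was at 205 and 223 CPM in Itga2b-high and Itga2b-low cells of replicate 1 and at 77.8 and 91.8 CPM in replicate 2 (log2 difference -0.18, SE 0.41). Procr was lower in the Itga2b-high cells of replicate 1 (-1.40) and higher in those of replicate 2 (0.81). The integrin partner of CD41, Itgb3, was at 90.2 and 22.96 CPM in replicate 1 and at 51.8 and 24.8 CPM in replicate 2 (log2 difference 1.52, SE 0.82), and none of the 7 platelet genes tested was called. Runx1 levels in cells with 10 or more Itga2b counts went opposite ways, with a median of 27.8 against 205 CPM in the other cells of replicate 1 and of 106 against 8.16 CPM in replicate 2.

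The levels of other blood genes in the few cells with Spn or Ptprc are given as values of 7 cells with no test. In replicate 1, Spn stood at 93, 44 and 10 counts in 3 cells, and in replicate 2 at 38 and 10 counts in 2 cells. Of these 5 cells, 4 had 10 or more counts of Kit, all 5 had 10 or more of Pecam1 and of Cd44, and 1 had 10 or more of Itga2b. Ptprc stood at 14 counts in 1 cell of replicate 1 and at 33 and 10 counts in 2 cells of replicate 2, and all 3 cells had 10 or more counts of Kit and Cd44 and under 10 of Itga2b. Both Spn and Ptprc were present in 1 cell, the one of replicate 1 with 44 and 14 counts. No cell had 10 or more counts of both Itga2b and Ptprc.

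Coro1a, an actin regulator of leukocytes, had a median of 548 CPM in the Spn cells of replicate 1 against 14.7 CPM in the other 40 cells, and of 247 against 7.73 CPM in replicate 2. Spi1 followed the same order, at 211 against 1.10 CPM and at 229.6 against 0 CPM. Runx1 was at 414 against 46.3 CPM and at 341 against 8.16 CPM. In the Ptprc cells Spi1 was at 211 CPM in replicate 1 and at a median of 458 CPM in replicate 2. Not all blood genes were high, since Pf4, a platelet gene, reached 10 counts in none of the 7 cells. Gfi1 reached 10 counts in 1 of 3 Spn cells of replicate 1, in 1 of 2 of replicate 2 and in no Ptprc cell. Its median in the Ptprc cells was 4.36 against 0 CPM in replicate 1 and 1.17 against 2.08 CPM in replicate 2. These medians are near 0 and give no direction. Cdh5, the cadherin of endothelial junctions, was still present in the Ptprc cells. It was at 225 CPM in replicate 1 and a median of 314 CPM in replicate 2, against 338 and 628 CPM in the other cells.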

How the data were processed

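The deposited files give raw counts per gene and cell for 2 libraries of 43 and 44 cells. By the authors' methods, they were made from modified STRT-seq reads, assigned to cells by barcode, aligned to mm10 (HISAT2 2.1.0) and counted (HTSeq). The methods also state that duplicates were collapsed by molecular identifier. No cell was dropped, although 1 had under 2000 genes, the minimum in the methods, and no doublet caller was run on this well-based set. The sort genes were set by the gate, and the gene lists were chosen with earlier results of these data known. CPM were computed per cell and from counts summed per library, shares have exact 95% binomial intervals that cover counting error only, and cells were thinned to 20000 counts. Cells above and up to the median of Kit or Itga2b CPM were summed per library and tested with edgeR 4.0.16 (R 4.3.3), using filterByExpr, TMM factors and glmQLFTest with the library as block, since both sums come from 1 library, and Benjamini-Hochberg adjustment. The 4 sums leave 1 residual degree of freedom. The test therefore took its spread largely from all genes together, and a p-value does not measure how the 2 libraries agreed for 1 gene. Lyve1, for one, was called (edgeR adjusted p = 0.0059) at -2.66 in replicate 1 and 0.28 in replicate 2. DESeq2 1.42.0 was an alternative. Named genes were the sort genes, the 3 most and 2 least like each of 5 of them, up to 10 called genes a direction with 20 CPM or more that changed alike in both libraries, and called or abundant members of the 9 lists. Scripts were first tested on simulated data. GENCODE M21 placed 22127 of 23154 symbols, and promoters are from RefSeq.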

Additional observations from a re-analysis of the deposited data

How the results depend on the processing

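Against 142 genes called between Kit-high and Kit-low cells, the count was 0 without the replicate block, 220 with DESeq2 and the library as replicate block, 1 with each cell thinned before summing, and, in fits chosen after seeing the data, 244 with the split at 10 or more counts and 93 in cells of 50000 counts or more. Against 7 genes between Itga2b-high and Itga2b-low cells, it was 1 without the replicate block, 17 with DESeq2, 3 with the split on thinned counts, 0 without the collagen-high cells and 0 with the split at 10 counts. The cause of these shifts was not tested, beyond the smaller number of genes tested in thinned sums. With 1 library left out no residual degree of freedom remains, so no count of calls was made. Of the 7 sort genes, 5 were found in 50% or more of all cells, but 3 at 10 counts and 3 after thinning. Of the 21 pairs, 3 passed 0.3 in size with replicate 1 alone and 3 with replicate 2 alone, against 0 with the same sign in both. Lyve1 ranged from -2.66 without replicate 2 to 0.28 without replicate 1. Col1a1 turned to -0.42 with the split at 10 counts, Col3a1 to -0.29 without the collagen-high cells and to -0.40 with that split, and Nnat to -0.76 without those cells. By a fixed fold limit, 25 summary counts stayed near the main count and 14 moved. Of the values for single genes and pairs, 643 stayed the same by the rule set for each, 44 moved, 133 lost their call and 5 reversed. For levels and pairs with 1 library left out, this rule could only give the same. It asked whether each of 2 values lay within 1 SD of their mean, which is always so. Such entries are among the 643 and say nothing about stability. Spn and Ptprc rest on 9 and 3 cells.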
